A study of Homo sapiens with 17 samples.

Results

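The 10 genes described here encode the kinases and chromatin mediators of DNA damage signalling: *ATM*, *ATR*, *CHEK1*, *CHEK2*, *WEE1*, *CLSPN*, *MDC1*, *TP53BP1*, *RNF8* and *RNF168*. They were listed by name for their bearing on radiosensitivity, with earlier results of these data known. Their symbols were matched to Ensembl gene identifiers, which found 10 of 10 among 60664 genes in the table. RNA-Seq was performed in SF8628, an established diffuse intrinsic pontine glioma (DIPG) cell line, treated with DMSO as vehicle or with 1 μM AZD5153, an inhibitor that occupies the bromodomains of BET proteins. Cells were collected at 24 or 48 hours, and each of the 4 groups (DMSO 24h, DMSO 48h, AZD5153 24h and AZD5153 48h) had 3 libraries. All 12 libraries came from this 1 cell line, no irradiated RNA-Seq library is among them, and the labels do not say whether the 3 libraries of a group were separate cultures. The p-values below therefore measure the spread between these libraries, which may be technical.

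A DNA break is sensed by protein complexes that recruit the apical kinases. ATM responds mainly to double-strand breaks and ATR to single-stranded DNA at stalled replication forks. They phosphorylate the effector kinases CHK2 and CHK1, which restrain the CDC25 phosphatases, while WEE1 places the inhibitory phosphate on CDK1. On chromatin, MDC1 binds phosphorylated H2AX and brings in the ubiquitin ligases RNF8 and RNF168, whose histone marks allow 53BP1 to bind. These are events on proteins, whereas the values here are levels of RNA.

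The libraries held 15759148 to 27335220 reads on genes. The values are normalized counts, that is, reads on a gene divided by a size factor of the library, and the fewest reads behind any value of the 10 genes were 72, for *CHEK2*. Differences were tested with limma on log2(normalized count + 1) with Benjamini-Hochberg adjustment over 15599 genes, and a gene is said to have risen or fallen where the adjusted p was under 0.05. As a check on the cell label, *SOX2* (119 to 252 normalized counts), *NES* and *VIM* were detected in every library, *GFAP* stood at 22.8 to 57.5 and *PDGFRA* at 0.892 to 5.40, and *OLIG2*, a defining marker of many diffuse midline gliomas, was at 0 in 12 of 12 libraries. Of 3 endothelial markers, *PECAM1* (27.2 to 565) and *VWF* (14.7 to 94.6) were detected in every library and *CDH5* was at 0 in all 12. Of 3 neuron markers, *SYT1* (634 to 903) and *RBFOX3* (0.856 to 13) were detected in every library and *STMN2* was at 0 in all 12. Of 3 myeloid and leukocyte markers, *PTPRC* (0 to 4.46) was at 0 in 5 libraries, *CD68* (0 to 3.67) in 9 and *AIF1* in all 12.

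At 24 hours of AZD5153, 6 of the 10 genes fell, 1 rose and 3 did not pass the test. In all genes tested, 34.6% fell and 33.9% rose at that time. The median log2 fold change was -0.79 over the 10 genes and 0.00037 over all genes. At 48 hours, 4 of the 10 fell and 3 rose, where 33.9% and 33.1% of all genes did so, and the median was -0.083 against 0.0011. *CHEK1*, *CHEK2*, *WEE1* and *MDC1* fell at both times, *TP53BP1* and *CLSPN* fell at 24 hours without passing the test at 48 hours, and *ATR* rose at both. *RNF8* and *RNF168* rose at 48 hours, and *ATM* passed the test at neither time.

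**Figure D1:**
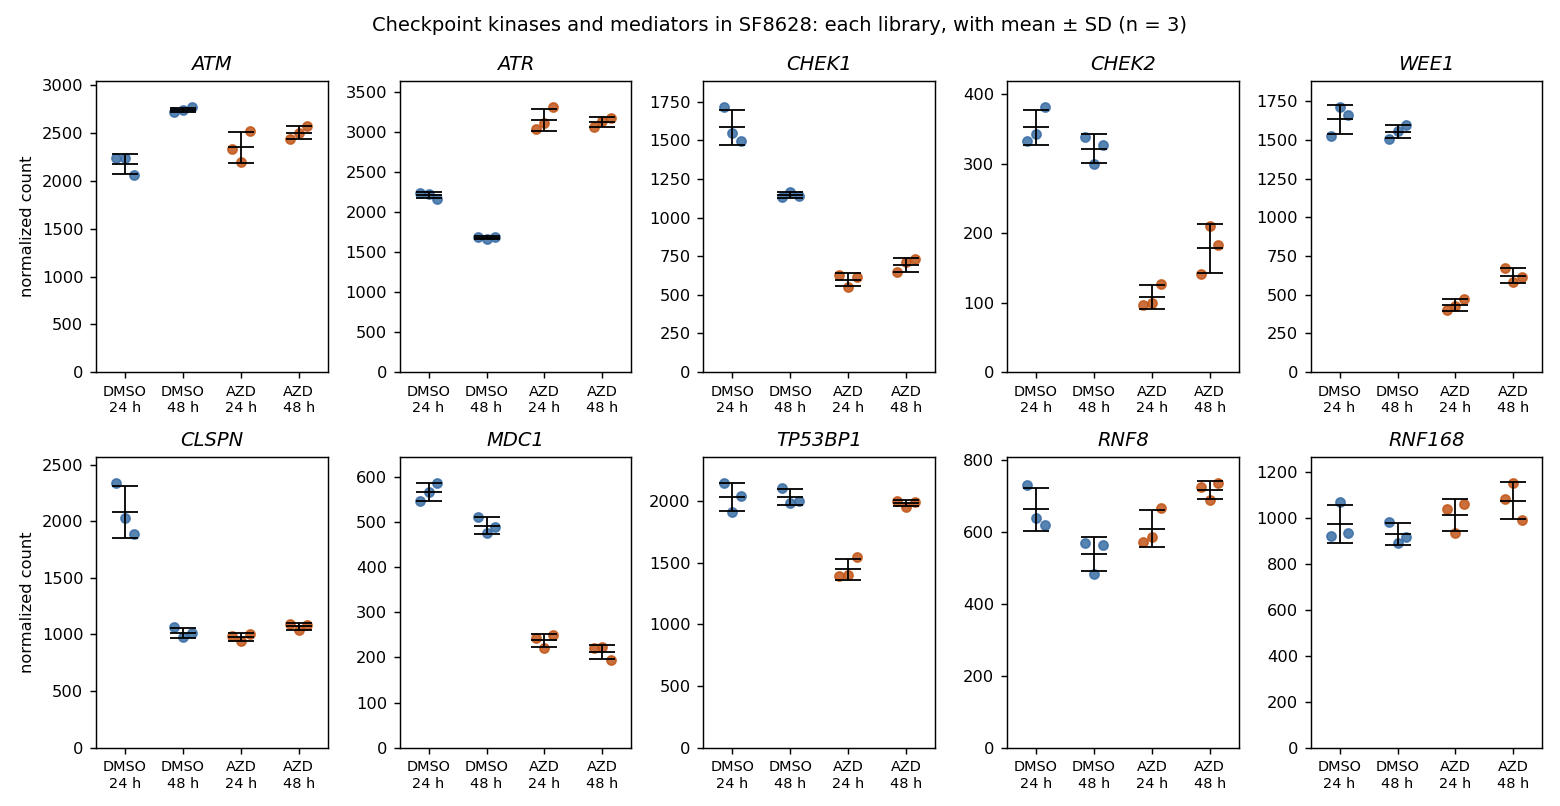
Normalized count of each gene (vertical axis, from 0) in the 12 libraries by group (horizontal axis, blue for DMSO and orange for AZD5153, points for libraries, bars for mean ± SD, n = 3). *CHEK1*, *CHEK2*, *WEE1* and *MDC1* are lower in every AZD5153 library than in any DMSO library, *ATR* is higher, and *CLSPN* is high in the DMSO libraries at 24 hours alone.

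Genes that dividing cells use moved with these groups. The summed normalized counts of the Seurat S phase list, taken over 42 genes without *CLSPN*, which is a gene of that list, were 95179 to 100550 in DMSO at 24 hours and 38937 to 40238 in AZD5153. At 48 hours they were 67739 to 68475 in DMSO and 43806 to 44552 in AZD5153. The G2/M list of 54 genes, which holds none of the 10, summed to 208140 to 224740 and 110570 to 113000 at 24 hours, and to 160860 to 166910 and 119190 to 120460 at 48 hours. In bulk libraries fewer cells in a phase of the cycle and less RNA per cell cannot be told apart, and the part of these lists in the results on the 10 genes was not tested.

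The apical kinases come first in the order of signalling. *ATM* (chr11:108223044-108369102, plus strand, GRCh38 with GENCODE 44, as for all genes below) stood at 2237, 2240.0 and 2060.3 normalized counts in the 3 DMSO libraries at 24 hours and at 2336, 2196 and 2523 in AZD5153. Its groups overlapped, and the change did not pass the test (log2 fold change 0.11, SE 0.057, adjusted p = 0.103, 95% interval -0.013 to 0.23). By 48 hours the DMSO libraries stood at 2726, 2747 and 2769.6 and the AZD5153 libraries at 2444, 2502 and 2575. Every AZD5153 library was below every DMSO library at that time, by little, and the difference lay just outside the threshold (log2 fold change -0.13, SE 0.057, adjusted p = 0.0513, limma). With edgeR on the recovered reads it lay just inside (-0.15, adjusted p = 0.0315), and with equal library totals it was -0.30 (adjusted p = 0.00023).

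*ATR* (chr3:142449007-142578733, minus strand) was the 1 gene of the 10 that rose at both times. At 24 hours the DMSO libraries held 2243, 2224 and 2169 normalized counts and the AZD5153 libraries 3034, 3114 and 3307. At 48 hours DMSO held 1692, 1659.6 and 1692 and AZD5153 3059, 3132 and 3181. The AZD5153 libraries were above all DMSO libraries of their time, and they stayed at about 1 level while DMSO was lower at 48 hours than at 24 hours. The increase was 1.42-fold at 24 hours (log2 fold change 0.51, SE 0.048, adjusted p = 1.26e-07) and 1.86-fold at 48 hours (log2 fold change 0.89, SE 0.048, adjusted p = 1.51e-10, limma).

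The effector kinases all fell. *CHEK1* (chr11:125625163-125676255, plus strand), which encodes the main kinase downstream of ATR, held 1712, 1545 and 1495 normalized counts in DMSO at 24 hours and 625, 549.8 and 617 in AZD5153. The libraries at 48 hours held 1132, 1167 and 1139 in DMSO and 645, 709 and 729.9 in AZD5153. The groups lay far apart at both times, with a 2.65-fold lower level at 24 hours (log2 fold change -1.41, SE 0.075, adjusted p = 1.23e-10) and a 1.65-fold lower level at 48 hours (log2 fold change -0.72, SE 0.075, adjusted p = 3.34e-07). *CHEK1* shares 53 exon bases with *STT3A* on the same strand, a subunit of oligosaccharyltransferase with a mean of 3798 normalized counts that also fell (-0.78 and -0.65). Reads in the shared bases can go to either gene or to neither.

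*CHEK2* (chr22:28687743-28742422, minus strand), which encodes the kinase that ATM activates, had the fewest reads of the 10 genes. It held 333, 343 and 381 normalized counts in DMSO at 24 hours and 96.5, 99.3 and 127 in AZD5153. At 48 hours it held 339, 299 and 327 in DMSO and 141, 211 and 182 in AZD5153. The groups were apart at both times, and the AZD5153 libraries at 48 hours spread most. The level was 3.27-fold lower at 24 hours (log2 fold change -1.71, SE 0.15, adjusted p = 4.13e-08) and 1.82-fold lower at 48 hours (log2 fold change -0.87, SE 0.15, adjusted p = 7.82e-05). *HSCB*, an iron-sulphur cluster chaperone gene on the opposite strand with a mean of 75.8, shares 293 exon bases with it, and the strand setting of the counting is not given in the sources used here. The 7 *CHEK2* pseudogenes in the table (*CHEK2P1* to *CHEK2P7*) were at 0 in all libraries. Reads that match both *CHEK2* and a pseudogene may have been counted to neither, which was not tested.

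*WEE1* (chr11:9573670-9593457, plus strand) had the lowest log2 fold change of the 10 genes at both times. Its DMSO libraries held 1528, 1709.7 and 1662 normalized counts at 24 hours and 1509, 1558 and 1595 at 48 hours. The AZD5153 libraries held 402, 425 and 475 at 24 hours and 673, 579 and 615 at 48 hours. The highest treated library was thus far below the lowest vehicle library. The level was 3.76-fold lower at 24 hours (log2 fold change -1.91, SE 0.078, adjusted p = 5.48e-12) and 2.5-fold lower at 48 hours (log2 fold change -1.32, SE 0.078, adjusted p = 4.32e-10, limma).

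*CLSPN* (chr1:35720218-35769978, minus strand) encodes claspin, the fork protein that presents CHK1 to ATR. The DMSO libraries held 2335, 2024 and 1889 normalized counts at 24 hours, against 987, 943 and 1007 in AZD5153. At 48 hours they held 1062, 973 and 1009.6, against 1093, 1038 and 1084. The DMSO libraries at 24 hours stood apart from the other 9, which lay between 943 and 1093. *CLSPN* was therefore 2.12-fold lower in AZD5153 at 24 hours (log2 fold change -1.08, SE 0.073, adjusted p = 2.11e-09), and at 48 hours the difference did not pass the test (log2 fold change 0.079, SE 0.073, adjusted p = 0.355, 95% interval -0.077 to 0.23).

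The upstream stretches of *CLSPN*, *ATR* and *RNF168* are shown because the first fell, the second rose and the third did not pass the test at 24 hours, and because no annotated exon lies in their 250 bases before the RefSeq start site. They are read on the gene's strand (minus for all 3) from GRCh38.p14, at chr1:35769976-35770228, chr3:142578734-142578983 and chr3:196503769-196504018. Capitals mark matches to the motifs searched, on either strand, and the *CLSPN* stretch runs 3 bases past the start site to hold a match whole.
CLSPN: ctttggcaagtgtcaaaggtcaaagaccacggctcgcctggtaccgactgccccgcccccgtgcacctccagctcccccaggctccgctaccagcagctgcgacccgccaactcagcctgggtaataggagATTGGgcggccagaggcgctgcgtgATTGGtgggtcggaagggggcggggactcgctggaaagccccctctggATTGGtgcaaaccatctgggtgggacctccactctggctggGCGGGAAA
ATR: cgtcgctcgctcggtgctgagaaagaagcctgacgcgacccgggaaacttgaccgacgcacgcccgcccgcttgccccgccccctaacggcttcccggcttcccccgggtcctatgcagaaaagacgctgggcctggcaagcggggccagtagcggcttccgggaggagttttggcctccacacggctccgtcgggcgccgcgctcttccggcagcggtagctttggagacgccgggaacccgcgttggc
RNF168: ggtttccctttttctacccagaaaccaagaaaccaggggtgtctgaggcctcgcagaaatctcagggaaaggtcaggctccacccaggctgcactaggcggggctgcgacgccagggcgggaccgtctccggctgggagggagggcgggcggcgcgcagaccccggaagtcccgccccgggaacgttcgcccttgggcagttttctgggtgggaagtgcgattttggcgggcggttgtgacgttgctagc

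The motifs were an E2F site (TTTCCCGC, TTTGGCGC, TTTGCCGC or TTTCGCGC), the CHR element (TTTGAA) and the CCAAT box (CCAAT), each on both strands. Windows of 300 bases were taken from the RefSeq promoter table, 250 before and 50 after a start site, and 9 of the 10 genes matched it, with 12 windows. *WEE1* had no window there, so its promoter was not searched. E2F letters were found in 3.31% of all 35116 windows, CHR letters in 15.2% and CCAAT in 34.6%. Of the 9 genes only *CLSPN* held E2F letters, 5 bases before its start and running past it, beside 3 CCAAT boxes. *CHEK2* held 3 CCAAT boxes and no E2F or CHR letters, *MDC1* held 2 CCAAT boxes and 1 CHR match, and *ATM* held a CHR match in 1 of its windows. *CHEK1*, *TP53BP1*, *RNF8* and *ATM* each had at least 1 CCAAT box, and *ATR* and *RNF168* had no match to any of the 3 motifs as spelled. The *RNF168* stretch holds TTTGGCGG, which differs from the searched TTTGGCGC in its last letter only. Other spellings of the E2F site were not searched. A match describes letters in a window and is not evidence that a factor binds there.

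Of the chromatin mediators, 1 fell at both times and 1 at 24 hours. *MDC1* (chr6:30699807-30717447, minus strand), the reader of phosphorylated H2AX, held 546, 566 and 586 normalized counts in DMSO at 24 hours and 243, 221 and 249.7 in AZD5153. At 48 hours the counts were 512, 475 and 488 in DMSO and 219.8, 223 and 194 in AZD5153. The groups were apart, and the decrease was of like size at both times, 2.38-fold at 24 hours (log2 fold change -1.25, SE 0.09, adjusted p = 4.79e-09) and 2.31-fold at 48 hours (log2 fold change -1.21, SE 0.09, adjusted p = 7.05e-09). It shares 13 exon bases with the tubulin gene *TUBB* on the opposite strand, whose mean was 1900 normalized counts and which fell by 1.00 and 1.05 on the log2 scale.

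*TP53BP1* (chr15:43403061-43510728, minus strand) encodes 53BP1, which shields broken ends from resection. It held 2144, 1913 and 2038 normalized counts in DMSO at 24 hours and 1388, 1404 and 1545 in AZD5153. At 48 hours it held 2105, 1983 and 2001 in DMSO and 1998, 1952 and 1995 in AZD5153. The groups were apart at 24 hours and overlapped at 48 hours. The level was 1.41-fold lower at 24 hours (log2 fold change -0.49, SE 0.059, adjusted p = 2.02e-06), and at 48 hours the log2 fold change was -0.034 (95% interval -0.16 to 0.092, adjusted p = 0.63, limma). With equal library totals the value at 48 hours was -0.21 and passed the test (adjusted p = 0.00667). *TUBGCP4*, a gamma-tubulin complex gene on the opposite strand, shares 3732 exon bases with *TP53BP1*, had a mean of 731 normalized counts and rose at both times (0.29 and 0.36).

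The ubiquitin ligases did not pass the test at 24 hours and rose at 48 hours. *RNF8* (chr6:37353979-37394734, plus strand), which starts the ubiquitin mark at a break, held 730.4, 638 and 621 normalized counts in DMSO at 24 hours and 574, 587 and 668 in AZD5153. At 48 hours it held 571, 484 and 564 in DMSO and 726, 689 and 737 in AZD5153. The groups overlapped at 24 hours (log2 fold change -0.12, SE 0.09, adjusted p = 0.243), and at 48 hours each AZD5153 library was above each DMSO library (log2 fold change 0.41, SE 0.09, adjusted p = 0.000752), a 1.33-fold increase. With equal library totals *RNF8* was lower at 24 hours (-0.24, adjusted p = 0.0252) and its rise at 48 hours was 0.24 (adjusted p = 0.0271).

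*RNF168* (chr3:196468783-196503768, minus strand), which extends that mark on histone H2A, held 919, 1068 and 933 normalized counts in DMSO at 24 hours and 1039, 933 and 1060.0 in AZD5153. The counts at 48 hours were 980.0, 888 and 916 in DMSO and 1079.6, 1149.5 and 991 in AZD5153. The groups overlapped at 24 hours (log2 fold change 0.055, SE 0.08, adjusted p = 0.553) and lay narrowly apart at 48 hours (log2 fold change 0.21, SE 0.08, adjusted p = 0.0307). The call at 48 hours was lost with equal library totals (0.037, adjusted p = 0.703), with no minimum mean (adjusted p = 0.0523), with no eBayes trend (adjusted p = 0.0539) and without AZD5153 replicate 1 (0.20, adjusted p = 0.0734) or 2 (0.16, adjusted p = 0.137), or DMSO replicate 2 (0.18, adjusted p = 0.107) or 3 (0.20, adjusted p = 0.0763).

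**Figure D2:**
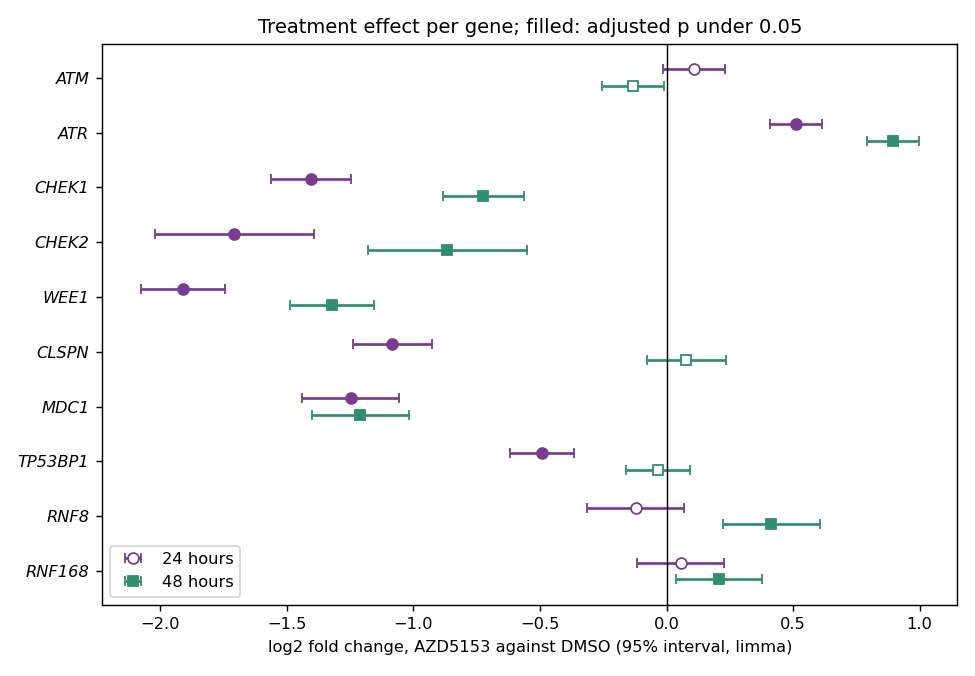
Log2 fold change of AZD5153 against DMSO (horizontal axis) for each gene (vertical axis) at 24 hours (purple circles) and 48 hours (green squares), with 95% intervals from limma and filled symbols where the adjusted p was under 0.05. *WEE1* lies farthest to the left at both times, *ATR* is the 1 gene to the right of 0 with filled symbols at both, and *CLSPN* moves from -1.08 to 0.079.

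Over both times together, 6 of the 10 genes were lower and 3 higher, where 38% and 37.7% of all genes were. *WEE1* had the largest decrease (log2 fold change -1.62, SE 0.055, adjusted p = 2.34e-13), followed by *CHEK2* (-1.29), *MDC1* (-1.23) and *CHEK1* (-1.06). *CLSPN* (-0.50) and *TP53BP1* (-0.26, or -0.41 with equal library totals) fell too. *ATR* rose by 0.70 (SE 0.034, adjusted p = 1.84e-11). The rises of *RNF8* (0.15, adjusted p = 0.0484) and *RNF168* (0.13, adjusted p = 0.0448) were small and were lost under several settings, and with equal library totals they stood at -0.0013 and -0.015.

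The design also asks whether the effect of AZD5153 differed between the times, which was tested as an interaction. For 7 of the 10 genes the effect was more positive at 48 hours than at 24 hours and for 1 it was more negative, against 14.4% and 10.1% of all genes, with a median of 0.50 over the 10 genes and 0.0016 over all. In the cycle lists the effect was more positive at 48 hours for 36 of 43 S phase genes (median 0.71) and 46 of 53 G2/M genes tested (median 0.76). It was more negative for 0 of either list. Among the 10 genes the difference was largest for *CLSPN* (log2 fold change 1.16, SE 0.10, adjusted p = 1.69e-06). It was 0.84 for *CHEK2* (SE 0.21, adjusted p = 0.00822), 0.68 for *CHEK1* and 0.59 for *WEE1*, so these kinases were less reduced at 48 hours. *RNF8* (0.53), *TP53BP1* (0.46) and *ATR* (0.38) passed the test in the same direction. The differences of *MDC1* (0.038, 95% interval -0.23 to 0.31) and *RNF168* (0.15, 95% interval -0.088 to 0.39) did not pass the test. *ATM* was the 1 gene with a more negative effect (log2 fold change -0.24, SE 0.081, adjusted p = 0.0402), a call lost without any 1 of 9 of the 12 libraries (adjusted p = 0.0539 to 0.0935): AZD5153 24h replicates 1 and 3, AZD5153 48h replicates 1, 2 and 3, DMSO 24h replicate 3 and DMSO 48h replicates 1, 2 and 3.

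The vehicle and the treated cells were also compared between times, with the same libraries that enter the treatment effects. In DMSO, 4 of the 10 genes were lower at 48 hours and 1 higher, against 19.3% and 16.4% of all genes. *CLSPN* fell 2.04-fold in DMSO (log2 fold change -1.03, SE 0.073, adjusted p = 1.21e-07), a step of like size to its difference between AZD5153 and DMSO at 24 hours. *CHEK1* (-0.46) and *ATR* (-0.40) fell too, as did *RNF8* (-0.30, adjusted p = 0.0171), whose call was lost without DMSO 48h replicate 2 (-0.22, adjusted p = 0.0969). *ATM* rose in DMSO (log2 fold change 0.34, SE 0.057, adjusted p = 0.000314).

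In AZD5153, 4 of the 10 genes were higher at 48 hours than at 24 hours and 0 were lower, against 15.8% and 13.8% of all genes. They were *CHEK2* (log2 fold change 0.71, SE 0.15, adjusted p = 0.00178), *WEE1* (0.52), *TP53BP1* (0.46) and *CHEK1* (0.22, adjusted p = 0.0375). The *CHEK1* call was lost with edgeR (0.21, adjusted p = 0.0538), under 4 other settings (adjusted p = 0.0586 to 0.0694) and without AZD5153 24h replicate 2 (0.16, adjusted p = 0.164), AZD5153 48h replicate 2 (0.20, adjusted p = 0.109) or 3 (0.18, adjusted p = 0.139), or DMSO 48h replicate 1 (0.22, adjusted p = 0.0522) or 2 (0.22, adjusted p = 0.0514). *ATR* did not pass the test in AZD5153 between times (-0.012, 95% interval -0.11 to 0.091).

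To compare levels between genes, normalized counts were divided by the summed length of annotated exons in kb. In DMSO at 24 hours *CHEK1* was highest at 283 per kb, above *CLSPN* at 217, *RNF168* at 182, *WEE1* at 177 and *TP53BP1* at 157. From *CLSPN* to *TP53BP1* the libraries of each gene overlapped those of the next. *RNF8* (101) came next, then *ATR* (81.2), *CHEK2* (78.4) and *MDC1* (74.2), which also overlapped in turn, and *ATM* was lowest at 55.6 per kb. In DMSO at 48 hours *CHEK1* was still highest (205) and *ATR* was lowest (61.7).

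In AZD5153 the order was another. *RNF168* was highest at 24 hours (189 per kb), apart from the next genes, *ATR* (116), *TP53BP1* (111), *CHEK1* (107), *CLSPN* (102) and *RNF8* (92.9), of which each overlapped its neighbour. *ATM* (60), *WEE1* (46.9), *MDC1* (31.2) and *CHEK2* (24) followed with no overlap between neighbours. At 48 hours *RNF168* (201) and *TP53BP1* (153) led, and *CHEK2* (39.6) and *MDC1* (27.8) were lowest. Annotated exons summed to 39184 bases for *ATM* and 27234 for *ATR*, against 5600 for *CHEK1* and 5347 for *RNF168*. Long exon models lower a level per kb where the cell uses a shorter transcript, which was not tested. The order of the genes per kb rests on these lengths and may not be their order in the cells.

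**Figure D3:**
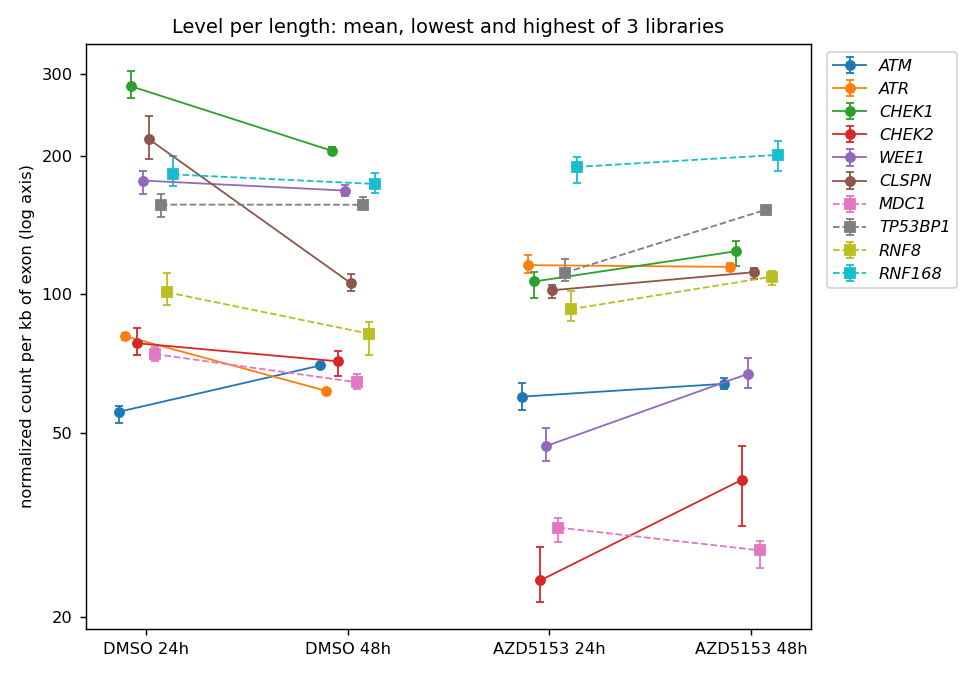
Normalized count per kb of annotated exon on a log axis (vertical) for the 10 genes in the 4 groups (horizontal), with the mean as point and the lowest and highest of 3 libraries as bars, and lines joining the times of 1 treatment. By this measure *CHEK1* leads in DMSO, *RNF168* leads in AZD5153, and *CHEK2* and *MDC1* lie at the bottom in AZD5153. The order depends on the annotated exon lengths.

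The partners of the 10 genes were taken from a hand-written list of 71 genes in 7 roles, all of which were tested. The list was chosen with earlier results of these data known. Its counts beside those of all genes are therefore a description and not independent support. At 24 hours 50 of the 71 fell and 13 rose (median log2 fold change -0.55), and at 48 hours 38 fell and 23 rose (median -0.37), beside medians of 0.00037 and 0.0011 over all genes. Of all genes, 34.6% fell and 33.9% rose at 24 hours, and 33.9% fell and 33.1% rose at 48 hours. The effect was more positive at 48 hours for 39 of the 71 and more negative for 2, against 14.4% and 10.1% of all genes. In DMSO 42 of the 71 were lower at 48 hours than at 24 hours and 1 was higher, against 19.3% and 16.4%. In AZD5153 18 were higher and 4 lower, against 15.8% and 13.8%.

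Among the sensors and clamp loaders, which find the damage and load the ATR activators, 10 of 14 fell and 3 rose at 24 hours, against 34.6% and 33.9% of all genes, and 9 fell and 5 rose at 48 hours, against 33.9% and 33.1%. *TOPBP1*, the activator of ATR, fell 3.27-fold at 24 hours (log2 fold change -1.71, SE 0.07, adjusted p = 5.68e-12) and 2.21-fold at 48 hours. Of the complex that recruits ATM, *MRE11*, its nuclease (-1.49 and -1.17), and *NBN*, its adaptor (-0.94 and -0.87), fell at both times, and *RAD50*, its ATPase, rose (0.64 and 0.62, the latter 0.95 with quantile normalization). *ATRIP*, the obligate partner of ATR, did not pass the test at 24 hours (-0.14, adjusted p = 0.112) and rose at 48 hours (0.49). With equal library totals it was lower at 24 hours (-0.26, adjusted p = 0.00541) and 0.32 at 48 hours. *RAD17*, the loader of the checkpoint clamp, rose at 48 hours (0.54). Its value at 24 hours lay at the threshold (0.25, adjusted p = 0.0487), and the call was lost under 7 other settings (0.13, adjusted p = 0.307, with equal library totals) and without any 1 of 10 libraries (adjusted p = 0.0539 to 0.297), with 0.10 without DMSO 24h replicate 3.

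Of the other apical kinases and their partners, 4 of 6 fell and 1 rose at 24 hours (34.6% and 33.9% of all genes), and 1 fell and 1 rose at 48 hours, a smaller share than the 33.9% and 33.1% of all genes. *PRKDC*, the catalytic subunit of DNA-PK, fell at 24 hours (-0.38, adjusted p = 1.51e-06), and its change at 48 hours (-0.055, adjusted p = 0.288) did not pass the limma test. With equal library totals it was lower at 48 hours (-0.23, adjusted p = 0.000328), as with quantile normalization (-0.35, adjusted p = 1.17e-05), which also gave -0.61 at 24 hours. Around the replication fork, 6 of 8 partners fell and 2 rose at 24 hours, and 5 fell and 3 rose at 48 hours, beside the same shares of all genes. *TIMELESS* and *TIPIN*, which hold claspin at the fork, fell at both times (-0.62 and -0.42, and -0.99 and -0.40), as did *CDC7*, a kinase of origin firing (-0.93 and -0.41). The *TIPIN* call at 48 hours was lost with quantile normalization (-0.17, adjusted p = 0.23).

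In the chromatin ubiquitin branch, 10 of 15 genes fell and 3 rose at 24 hours, against 34.6% and 33.9% of all genes, and 9 fell and 4 rose at 48 hours, against 33.9% and 33.1%. *BARD1*, a subunit of a ubiquitin ligase, fell 4.38-fold at 24 hours (log2 fold change -2.13, SE 0.10, adjusted p = 4.86e-11) and 2.18-fold at 48 hours, from 748 ± 55.2 to 169.9 ± 11.5 normalized counts and from 514 ± 53.7 to 235 ± 19.9 (SD, n = 3). *H2AX*, the histone that MDC1 reads once phosphorylated, rose (0.66, adjusted p = 0.00773, and 0.85, adjusted p = 0.00136, limma). Its DMSO libraries at 24 hours spread from 3666 to 8414 normalized counts, and without DMSO 24h replicate 1 the value at 24 hours was 0.29 (adjusted p = 6.88e-06). *UBE2N*, the conjugating enzyme that works with RNF8, fell at 24 hours (-0.25) and rose at 48 hours (0.22). The rise was lost with equal library totals (0.049, adjusted p = 0.365) and quantile normalization (0.061, adjusted p = 0.235).

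Of the 9 effectors of 53BP1, 6 fell and 2 rose at 24 hours, against 34.6% and 33.9% of all genes. At 48 hours 4 fell and 3 rose, shares near the 33.9% and 33.1% of all genes. *RIF1* (-0.76 and -0.41) and *PAXIP1* (-0.74 and -0.47), which 53BP1 recruits, fell at both times, and *MAD2L2*, a subunit of shieldin, rose (log2 fold change 1.06, SE 0.097, adjusted p = 8.24e-08 at 24 hours and 0.63 at 48 hours). The other shieldin genes, *SHLD1* (-0.83, adjusted p = 0.0264), *SHLD2* (-0.91, adjusted p = 4.51e-09) and *SHLD3* (-0.69, adjusted p = 0.0376), fell at 24 hours (limma). At 48 hours *SHLD2* fell (-0.65), and *SHLD1* (-0.51, adjusted p = 0.154) and *SHLD3* (-0.60, adjusted p = 0.0678) did not pass the limma test. All 9 targets of the checkpoint at the cell cycle engine fell at 24 hours, with a median of -1.74, against 34.6% of all genes. At 48 hours 7 fell and 1 rose, with a median of -1.01, against 33.9% and 33.1%. The G2/M list moved alike. Of its 53 genes tested, 51 fell and 2 rose at 24 hours (median -1.83), and 48 fell and 3 rose at 48 hours (median -0.997). Whether the fall of the 9 targets is separate from that of the G2/M list was not tested. *CDC25A* (-1.69 and -1.01) and *CDC25C* (-2.15 and -1.39), phosphatases that the effector kinases restrain, and *PKMYT1*, a relative of WEE1 (-1.95 and -1.46), fell at both times. *CDC25B* fell at 24 hours (-1.12) and did not pass the limma test at 48 hours (-0.040, adjusted p = 0.609).

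Of the 10 phosphatases and recovery factors, 5 fell and 2 rose at 24 hours, against 34.6% and 33.9% of all genes, and 3 fell and 6 rose at 48 hours, against 33.9% and 33.1%, so the shares rising at 24 hours and falling at 48 hours were not above those of all genes. *PLK1*, which ends the checkpoint by marking WEE1 and claspin for destruction, fell 3.13-fold and 2.05-fold (-1.65 and -1.04). *PPM1D*, the phosphatase that reverses ATM signalling, did not pass the test at 24 hours (0.12, adjusted p = 0.292, limma) and rose at 48 hours (0.57, adjusted p = 6.35e-05, limma).

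**Figure D4:**
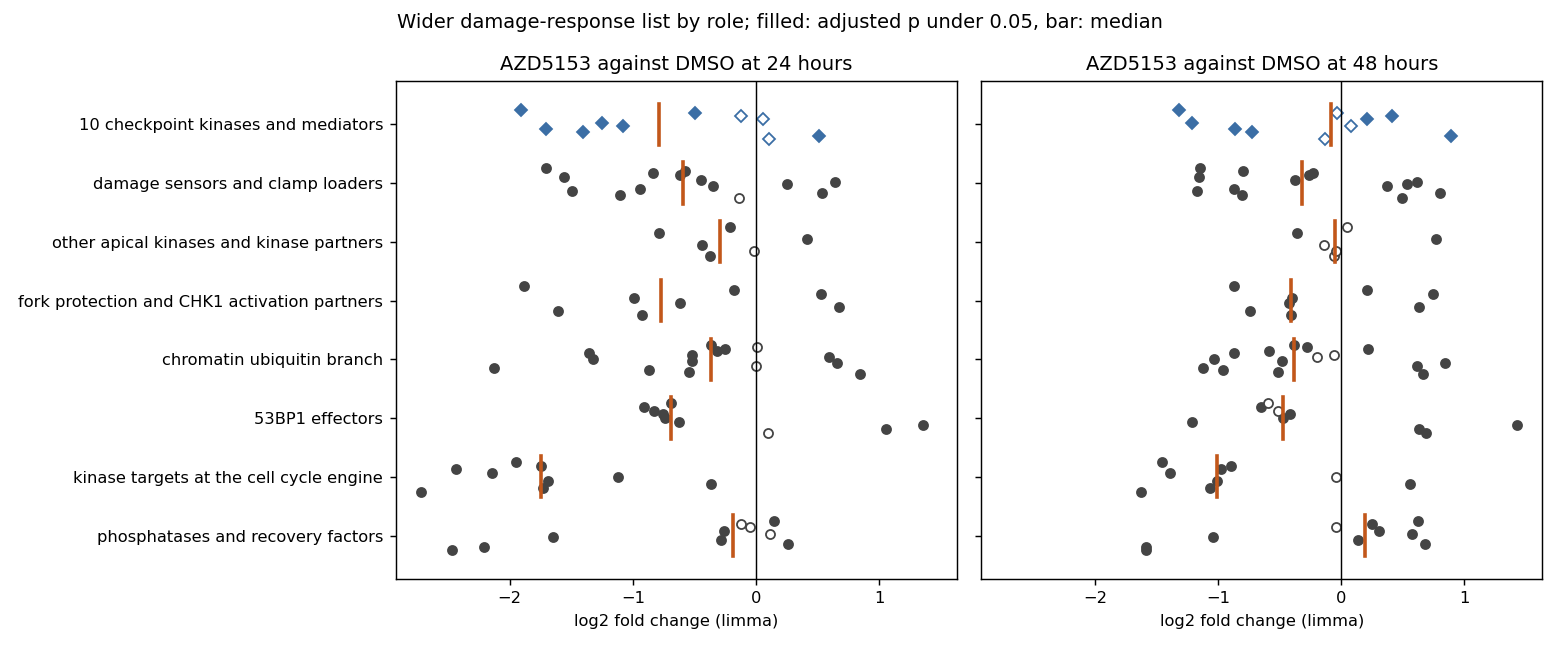
Log2 fold change of AZD5153 against DMSO (horizontal axis) at 24 hours (left) and 48 hours (right) for the 10 genes (diamonds) and the 71 partners by role (circles), filled where the adjusted p was under 0.05, with orange bars for the median of a role. The targets at the cell cycle engine lie farthest to the left, with medians of -1.74 and -1.01, and the phosphatases and recovery factors move from -0.19 to 0.19.

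The pattern over the 12 libraries that was most like each of the 10 genes, among these genes and the 71 partners, is given as a description, since the libraries share their treatment groups. *CHEK1* was most like *CCNB1* (Pearson r = 0.993 of log2 values), *MDC1* most like *RHNO1* (0.989), *WEE1* most like *KMT5A* (0.988) and *CHEK2* most like *CDK1* (0.968). *ATR* was most like *HUS1* (0.976), a subunit of the checkpoint clamp, *TP53BP1* most like *CDC25B* (0.95) and *CLSPN* most like *XRCC6* (0.928). The likeness was lower for *RNF8* (*RAD1*, 0.861), *RNF168* (*PPP6C*, 0.681) and *ATM* (*L3MBTL1*, 0.472).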

How the data were processed

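RNA-Seq was measured in 12 libraries of SF8628 cells, 3 in each of 4 groups taken from the labels. Per the submitters' processing notes and methods, STAR placed the paired-end reads on hg38, HTSeq gave the counts per gene and DESeq2 the normalization. Their versions, the annotation and the strand setting are not given in the sources used here. The values the authors deposited are a signal, gene counts divided by 1 size factor per library, and 0 columns of values were left unmapped. The same table's log2 fold changes, standard errors and p-values from the authors' own comparison were not used. CUT&RUN and JQ1 samples were not analysed here. Division by the step of each library turned 100% of its values into whole reads (tolerance 0.01 reads), and 0 entries named no gene. Replicates differed by more than sampling noise (chi-square per degree of freedom 2.12 to 25.6) and each counted as 1 sample.

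The 15599 genes whose mean reached 10 normalized counts entered limma (3.58.1, R 4.3.3) on log2(value + 1), with all 4 groups in 1 fit, a trended eBayes and Benjamini-Hochberg adjustment at 0.05. A fold change on this scale understates the change of low genes. As alternatives, the recovered reads were tested with edgeR (4.0.16, quasi-likelihood) and DESeq2 (1.42.0), beside other pseudocounts, filters, scalings and fits and leaving out each library. On simulated counts with 200 genes changed by 1 on the log2 scale at 24 hours, limma recovered 89.5% with 3.76% of calls false (15518 genes), edgeR 89% and DESeq2 84.5%. The simulation gave all genes 1 dispersion (0.00639) and changed far fewer genes than were called in these data. Its rates therefore check the code and do not carry over to the calls here.

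The genes named are the 10 genes, 21 partners marked in the list of 71, genes overlapping the 10, and the partner most like each. The other shieldin genes of that list are named beside *MAD2L2*. The 10 genes and the lists were chosen with earlier results of these data known. The cycle lists are those of Seurat 5.3.0. Positions and exon lengths are from GENCODE 44 and promoter windows from RefSeq (GRCh38.p14).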

Additional observations from a re-analysis of the deposited data

Results flagged for a closer look

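For 8 of the 10 genes the effect of AZD5153 differed between 24 and 48 hours by the interaction test in limma (adjusted p under 0.05), where 24.5% of all genes tested did so in either direction. The call of *ATM* was lost without any 1 of 9 of the 12 libraries and under 4 other settings. The differences, as the log2 fold change at 48 hours minus that at 24 hours, were 1.16 for *CLSPN*, 0.84 for *CHEK2*, 0.68 for *CHEK1*, 0.59 for *WEE1*, 0.53 for *RNF8*, 0.46 for *TP53BP1*, 0.38 for *ATR* and -0.24 for *ATM*. The DMSO libraries took part in these differences: *CLSPN* fell by 1.03 between the times in DMSO and changed by 0.13 in AZD5153, *ATR* fell by 0.40 in DMSO and changed by -0.012 in AZD5153, and *ATM* rose by 0.34 in DMSO. For *CHEK2*, *WEE1* and *TP53BP1* the step was in AZD5153 (0.71, 0.52 and 0.46), with -0.13, -0.071 and -0.00022 in DMSO. In the cycle lists the effect was more positive at 48 hours for 36 of 43 S phase genes and 46 of 53 G2/M genes tested, and more negative for 0. The S phase and G2/M sums, given in the report, also differed between the times in DMSO. The part of these lists in the differences of the 10 genes was not tested.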

How the results depend on the processing

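Over 25 alternatives to each of the 10 genes' values (24 where a fit of only the groups compared does not apply, and leaving aside a minimum fold change), 1399 of 1480 values kept their call or lack of one, 56 lost the call with their sign kept, 23 gained a call and 2 lost the call with the sign turned. The calls of *ATR*, *CHEK1*, *CHEK2*, *WEE1*, *MDC1*, *TP53BP1* and *CLSPN* at 24 hours and those of *ATR*, *CHEK1*, *CHEK2*, *WEE1*, *MDC1* and *RNF8* at 48 hours held in all of them. The last 2 were *RNF8* (-0.0013) and *RNF168* (-0.015) over both times, with equal library totals in place of size factors, both near 0 (adjusted p = 0.986 and 0.814). Sign changes of values that did not pass the test with the size factors are not counted here, and some crossed 0: *CLSPN* at 48 hours ran from -0.093 to 0.11, *ATM* at 24 hours from -0.015 to 0.16 and *RNF168* at 24 hours from -0.068 to 0.12. That scaling moved the median of all genes by -0.12 at 24 hours and -0.17 at 48 hours, quantile normalization by 0.11 and 0.16. With equal totals 4340 genes were higher and 6293 lower at 24 hours, where the size factors gave 5287 and 5392, 3894 and 6511 at 48 hours, where they gave 5159 and 5294, and 4653 and 7077 over both times, where they gave 5885 and 5934. For the difference between times it gave 1760 and 1893 in place of 2254 and 1575, and 7 stable genes 2826 and 1165. In DMSO between times equal totals gave 3126 and 2440 in place of 2551 and 3015, and in AZD5153 the 7 stable genes gave 3407 and 1369 in place of 2472 and 2155. The cause of these shifts was not tested.

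With equal totals 7 of the 10 genes were lower at 24 hours in place of 6, 6 lower and 2 higher at 48 hours in place of 4 and 3, and 7 lower over both times in place of 6. The counts of the 10 genes that moved by over 1.5 times were as follows. Higher at 24 hours was 1 to 2 when each library was left out, 2 without AZD5153 24h replicate 2 or DMSO 24h replicate 1, by *ATM* (0.16, adjusted p = 0.0344, and 0.13, adjusted p = 0.0464). Higher over both times was 1 to 3 without each library, and 1 with no minimum mean, equal totals, 7 stable genes, no eBayes trend or DESeq2. More negative at 48 hours was 0 to 1 without each library, and 0 with no minimum mean, 7 stable genes, no eBayes trend or the replicate block. In AZD5153 between times, 7 genes were higher with 7 stable genes, in place of 4. *ATM* at 48 hours passed the test in 6 other settings and 4 leave-outs, at -0.15 with TMM scaling (adjusted p = 0.031), and the difference of *ATM* between times had adjusted p = 0.0654 with the replicate block.

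In the list of 71, more negative at 48 hours was 0 to 2 without each library, 0 with no minimum mean or 7 stable genes and 1 with the replicate block or no eBayes trend. Higher in DMSO at 48 hours was 0 to 2 without each library, 3 with equal totals or quantile normalization and 2 with edgeR or no eBayes trend. Of 18 pairs of libraries with equal replicate numbers, 0 had deviations correlated over 0.1 (r from -0.15 to 0.036). Other pairs ran from -0.11 to 0.15, and 4 of 12 libraries correlated best with their own number. With deviations taken from means of 3 libraries, this cannot decide whether equal numbers mark a shared batch. The main fit treated the libraries as unpaired.

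A minimum log2 fold change of 1, which is a stricter rule, left these counts. Of the 15599 genes tested, 1690 were higher and 2450 lower at 24 hours, 1379 and 2580 at 48 hours and 1493 and 2506 over both times. Between times 196 were more positive and 558 more negative, in DMSO 485 were higher and 95 lower, and in AZD5153 286 were higher and 287 lower. Of the 10 genes, 0 were higher and 5 lower at 24 hours, 0 higher and 2 lower at 48 hours, 0 higher and 4 lower over both times, 1 more positive and 0 more negative between times, 0 higher and 1 lower in DMSO, and 0 higher and 0 lower in AZD5153. Of the 71, 2 were higher and 20 lower at 24 hours, 1 higher and 14 lower at 48 hours, 1 higher and 18 lower over both times, 5 more positive and 0 more negative, 0 higher and 0 lower in DMSO, and 1 higher and 0 lower in AZD5153. Among the 10 genes *CHEK2* had the fewest reads, 72 in its shallowest library.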
